A study of Mus musculus with 2 samples.

Results

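Annotated transcripts that GENCODE M21 classes as nonsense-mediated decay (NMD) transcripts, and that had at least 1 long read in C2C12 cells, are described here. Members were the transcript models matched to an annotated transcript (the class Known) whose annotated type is NMD, with a read in either of 2 libraries. This gave 596 models in 528 genes, out of 7186 annotated NMD transcripts and out of 19155 annotated models of any type with a read. C2C12 is a mouse myoblast line that the labels trace to injured thigh muscle of C3H mice and to the repository ATCC. Both libraries were made from total RNA and are labelled as biological replicates 1 and 2 of 1 group. No treatment, genotype or differentiation state of the cultures is given in the labels, and nothing in them says that the cultures were separate. The p-values printed below cover the counting error of reads in these libraries, and none covers a spread between separate cultures. The only comparison possible is between the libraries. All 6 myoblast markers examined had reads in both libraries, summing to 2470 and 2873 CPM (reads scaled to a library total of 1000000), and 10 of 15 markers of blood, endothelium, epithelium, nerve and fat had none, the 15 together reaching 5.17 and 8.30 CPM. Replicate 1 held 791850 reads and replicate 2 held 735077, of which 773408 and 722647 lay on annotated genes. CPM were taken over the annotated-gene reads, where 3 counts, the limit that a count of 0 allows, make 3.88 CPM in replicate 1 and 4.15 in replicate 2.

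NMD is a translation-dependent pathway that degrades mRNAs whose stop codon lies well upstream of the last exon-exon junction. A ribosome that stops there leaves exon junction complexes on the mRNA downstream of it, and the UPF and SMG proteins recruit decay enzymes. The pathway clears faulty mRNAs, and many genes for RNA-binding proteins use it to limit their own expression, by including a so-called poison exon or skipping a coding exon. An annotation gives the type NMD to a transcript by the position of its stop codon, which does not show that the transcript is degraded. Every value below is a level at steady state, in which production and decay cannot be told apart.

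The sequences that make these transcripts differ are short. Each line shows the coding strand of the mature transcript, 5′ to 3′, from GENCODE M21 on mm10: first 12 bases that the NMD model shares with the most-read protein-coding model of its gene, then all bases from the point of departure to the stop codon, which is in capitals. The first 6 are among the 25 most-read models and show 3 kinds of change, 3 with an added exon, 2 with a shifted splice site and 1 with a skipped exon. The last 3 are added exons of splicing regulators.
Cenpa-202: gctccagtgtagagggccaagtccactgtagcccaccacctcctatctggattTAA
Yaf2-202: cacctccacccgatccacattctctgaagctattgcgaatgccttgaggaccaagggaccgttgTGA
Lgals1-202: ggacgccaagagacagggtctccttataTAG
Tmem234-210: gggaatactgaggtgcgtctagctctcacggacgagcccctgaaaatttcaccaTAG
Rpl10a-203: gggcaccgtcaggttggcaccgctcTAA
Clk1-210: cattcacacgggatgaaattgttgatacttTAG
Srsf3-201: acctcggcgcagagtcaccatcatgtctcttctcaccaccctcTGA
Rbm39-225: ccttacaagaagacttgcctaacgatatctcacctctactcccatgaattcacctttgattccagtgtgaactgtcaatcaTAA
Tra2b-206: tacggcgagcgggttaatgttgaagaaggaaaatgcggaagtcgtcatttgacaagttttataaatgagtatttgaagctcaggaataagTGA
In Cenpa-202 the stop codon lies at chr5:30669733-30669735 on the plus strand, 44 bases into an added internal exon of 137 bases at chr5:30669692-30669828. In Yaf2-202 it lies at chr15:93317554-93317556 on the minus strand, in an added exon of 70 bases, and in Lgals1-202 at chr15:78928581-78928583 on the plus strand, in an added exon of 103 bases. Tmem234-210 has its stop at chr4:129601177-129601179 (plus strand) and Rpl10a-203 at chr17:28329061-28329063 (plus strand), 45 and 16 bases after the reading departs at a shifted splice site. Clk1-210 lacks the 91-base exon chr1:58420121-58420211 (minus strand), and reaches its stop after 21 bases. The added exons of Srsf3-201 (456 bases, chr17:29039454-29039909, plus strand), Rbm39-225 (73 bases, chr2:156178880-156178952, minus strand) and Tra2b-206 (276 bases, chr16:22258986-22259261, minus strand) bring a stop after 34, 72 and 81 bases.

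NMD transcripts took a small and nearly equal part of the reads of both libraries. They held 1574 reads in replicate 1, which is 0.204% of annotated-gene reads (Wilson 95% interval 0.194% to 0.214%), and 1466 reads in replicate 2, which is 0.203% (0.193% to 0.214%). The mean was 0.203% ± 0.000459 (SD, n = 2), and no difference between the libraries was found by Fisher's exact test on the reads (two-sided, p = 0.942). Intervals and p-values of reads cover counting error only, PCR reads without molecular identifiers are not independent molecules, and each test compares these 2 libraries rather than conditions.

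Other annotated types without a full-length reading frame differed between the libraries. Retained-intron transcripts, spliced models that keep an intron and carry no annotated reading frame, took 0.807% of the annotated-gene total in replicate 1 and 0.562% in replicate 2 (Fisher's exact test, two-sided, p = 3.81e-74). Processed transcripts, spliced models without an annotated reading frame, took 0.433% and 0.372% (Fisher's exact test, p = 4.63e-09). Protein-coding transcripts took 70.3% and 74.4%. The ratio itself differed: there were 25.2 NMD reads for every 100 retained-intron reads in replicate 1 and 36.1 in replicate 2 (Fisher's exact test, p = 6.60e-18). NMD reads per 100 processed-transcript reads were 47.0 and 54.5 (Fisher's exact test, p = 9.55e-04), and per 100 protein-coding reads 0.289 and 0.273 (p = 0.106). The plot of annotated types shows the read share of the 3 types other than protein-coding, and the reappearance of all 4.

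**Figure D1:**
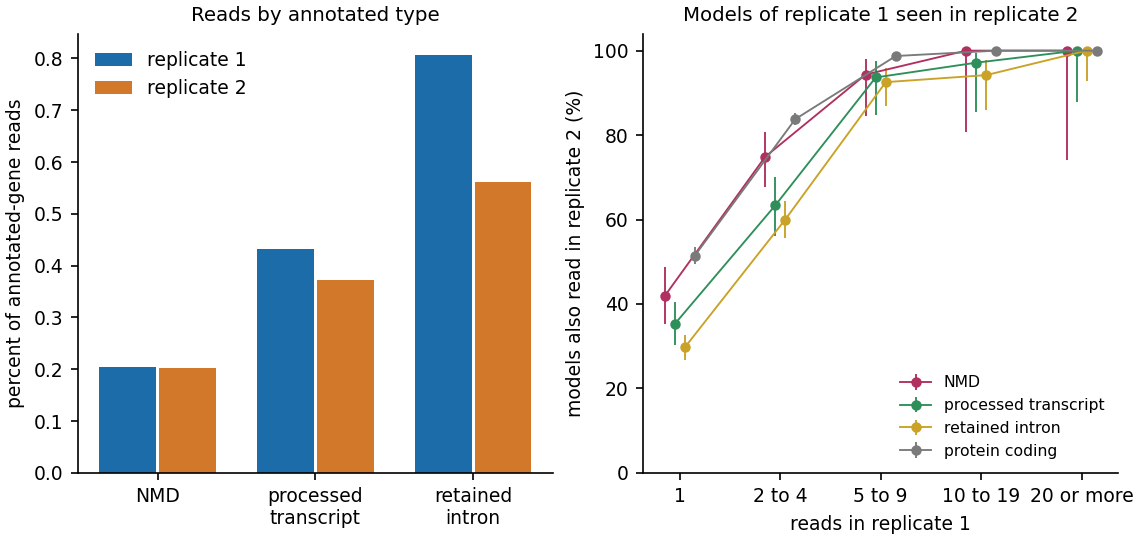
Left, percent of annotated-gene reads on NMD, processed-transcript and retained-intron models in each library (bars start at 0). Right, percent of the models of replicate 1 that also had a read in replicate 2, by reads in replicate 1, with Wilson 95% intervals; NMD bars are level at 0.204% and 0.203%, and NMD models with 10 or more reads in replicate 1 were all read in replicate 2.

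Most NMD transcripts were seen at the edge of detection. Of the 596 models, 234 had a single read over both libraries and 362 had 2 or more, 173 had 5 or more, 63 had 10 or more, and 2 passed 100. The median was 2 reads, against 10 for protein-coding, 2 for processed-transcript and 1 for retained-intron models with a read. The 25 most-read models held 1085 of the 3040 reads (35.7%). Just outside the rule lay 6590 annotated NMD transcripts with 0 reads, 5094 of them in genes that had reads. In genes with at least 20 reads in each library, 409 of 2372 annotated NMD transcripts had a read (17.2%).

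Genes with more reads showed an NMD transcript more often, and in the genes with the most reads it took a smaller share. Among the 3513 genes with an annotated NMD transcript and any read, 528 (15.03%) had an NMD read. That proportion was 3.21% in 873 genes with 1 to 9 reads summed over the libraries, 10.8% at 10 to 39, 20.5% at 40 to 99, 27.0% at 100 to 399, and 31.0% (Wilson 95% interval 24.5% to 38.3%) in 171 genes with 400 or more. NMD models took 0.995% of all reads in genes of 1 to 9 reads, 1.40% at 10 to 39, 1.48% at 40 to 99, 0.933% at 100 to 399 and 0.418% in genes with 400 or more. In that last set the values by library were 0.431% and 0.403%.

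A model's reappearance in the other library followed its reads. Reads fell on 450 NMD models in replicate 1 and 433 in replicate 2, and on 287 in both. The 163 models of replicate 1 alone had at most 7 reads, and the 146 of replicate 2 alone at most 4. Of models with at least 5 reads in replicate 1, 77 of 80 had a read in replicate 2 (96.3%, Wilson 95% interval 89.5% to 98.7%), and 73 of 73 the other way. The 3 that did not were 4921524J17Rik-202, Mterf3-205 and Plpp5-203, named after their values were seen, with 7, 6 and 5 reads in replicate 1. At the same minimum of 5 reads, protein-coding models reappeared in 99.7% and 99.6% of cases. Processed-transcript models did so in 96.0% and 99.0%, and retained-intron models in 94.4% and 98.2%. The protein-coding models of this set had more reads, a median of 22 and 23 against 7 and 7 for NMD models. For models with exactly 1 read the figures were 41.9% (35.3% to 48.7%) and 43.7% (37.1% to 50.5%), where protein-coding models reached 51.5% and 49.2% and retained-intron models 29.7% and 39.9%.

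**Figure D2:**
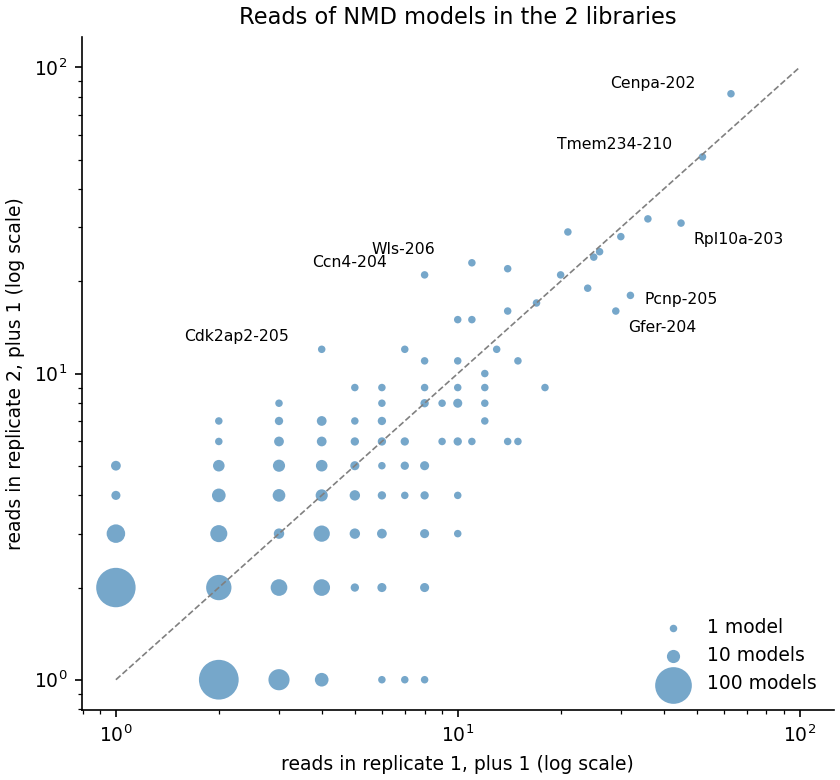
Reads of each of the 596 NMD models in replicate 1 (x axis) and replicate 2 (y axis), both plus 1 on log scales; point area gives the number of models at that position and the dashed line marks equal reads. Cenpa-202 lies highest at 62 and 81 reads, and Ccn4-204 (7 and 20), Wls-206 (10 and 22) and Cdk2ap2-205 (3 and 11) lie above the line.

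No NMD transcript was called different between the libraries. Over all 7925 annotated transcripts with at least 10 reads, a two-sided exact binomial test with Benjamini-Hochberg adjustment at 0.05 called 346 (4.37%), and 0 of 63 NMD models, of which 3 had an unadjusted p under 0.05. Of these 63, 23 had 20 or more reads summed and 5 had 50 or more. At such counts only large differences can be called, so 0 calls do not show that NMD models were more stable than other types. The edgeR exact test also called 0, with 1 under 0.05. Its dispersion was estimated over genes from these same 2 libraries and so already holds their differences, and its 0 calls are no separate support. The binomial test also called 0 with TMM scaling (3 under 0.05) and with DESeq2 size factors (1 under 0.05). Those size factors were 1 in each library although replicate 1 held more reads, so that run made no correction for depth. The smallest adjusted p of the binomial test was 0.141, for Ccn4-204, a transcript of the secreted Wnt-induced matricellular gene Ccn4, with 7 and 20 reads. The other 2 were Wls-206, from the gene for the carrier that takes Wnt proteins to the cell surface, with 10 and 22 reads (adjusted p = 0.219), and Cdk2ap2-205 with 3 and 11 (0.258), named after its values were seen. In the same test 18 of 192 retained-intron transcripts were called, all higher in replicate 1, a direction in which 2.18% of all annotated transcripts were called. The edgeR exact test called 9 of the 7925 transcripts in all.

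The share of a gene's reads, which removes the level of the gene, was tested next. Fisher's exact test (two-sided) of each transcript against the other reads of its gene called 114 of 6984 annotated transcripts (1.63%, of which 1.35% higher in replicate 2 and 0.286% higher in replicate 1) after Benjamini-Hochberg adjustment, and 0 of 145 NMD models, with 6 at an unadjusted p under 0.05. The smallest adjusted p was 0.174, for Plpp5-203, with 5 and 0 reads. For the 63 NMD models with at least 10 reads the 2 libraries' Wilson intervals of the share overlapped in 63 cases. Across these 63 models, which share the same 2 libraries, the shares correlated with Pearson r = 0.940 and Spearman rho = 0.942. The median absolute difference was 2.22 percentage points and the largest was 33.3.

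In most genes the NMD transcripts were a small part of the reads, and in a few they were the main product read. Among the 359 genes with an NMD read and at least 20 reads in each library, the median NMD share over both libraries was 1.99%. The share was under 1% in 98 genes, from 1% to under 10% in 226 and at least 10% in 35, of which 3 reached 50%. In 27 genes it was at least 10% in each library separately. Genes whose NMD models had 0 reads are not in these counts.

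**Figure D3:**
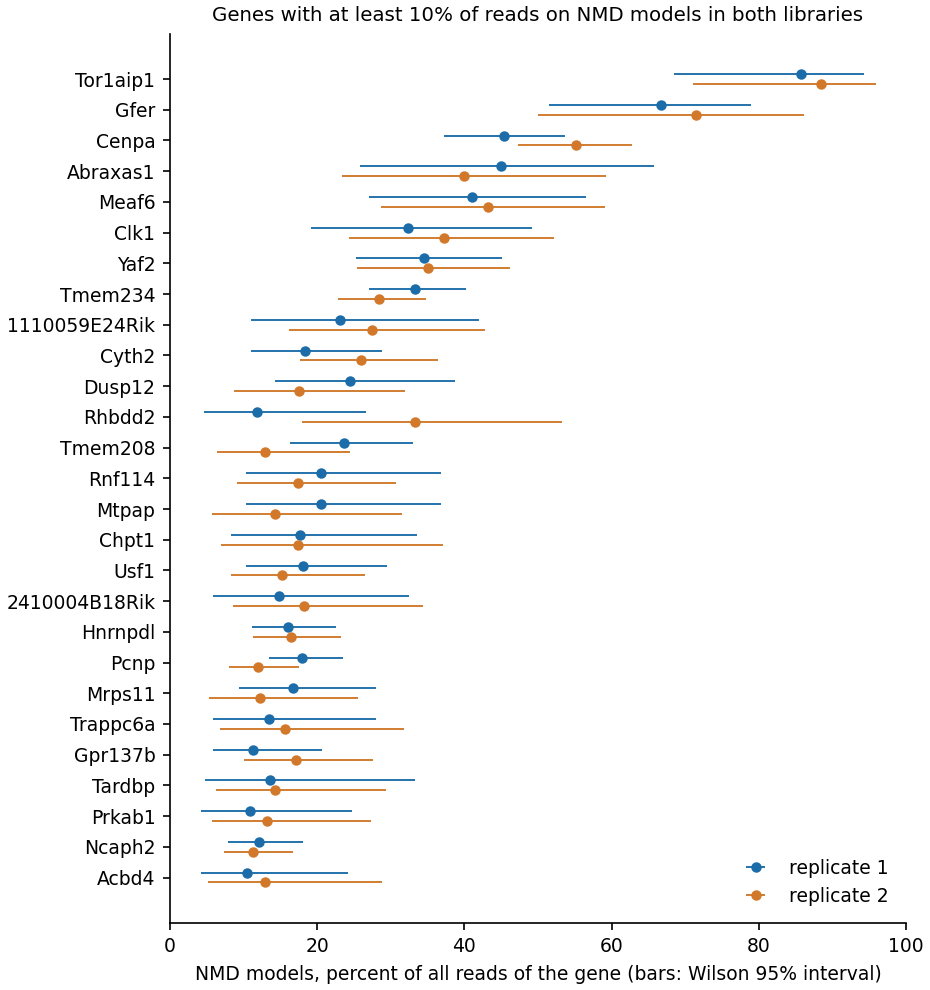
Percent of all reads of the gene on its NMD models in replicate 1 and replicate 2, for the 27 genes with at least 10% in both and at least 20 reads in each; bars are Wilson 95% intervals. Tor1aip1 is highest at 85.7% and 88.5%, and the intervals of the 2 libraries overlap in each gene drawn.

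The models with the most reads or the highest shares are given by the role of their gene, starting with chromatin and the nucleus. Cenpa encodes the histone H3 variant that marks centromeres. Its NMD transcript Cenpa-202 (chr5:30666897-30674378) had the most reads of all members, 62 in replicate 1 and 81 in replicate 2, out of 139 and 154 gene reads. The shares, with Wilson 95% intervals here and below, were 44.6% (36.6% to 52.9%) and 52.6% (44.7% to 60.3%), or 48.6% ± 5.65 (SD, n = 2), against 50 and 50 reads on the most-read coding transcript, Cenpa-205. Cenpa-202 thus had more reads than any coding transcript of the gene in each library. With the minor models Cenpa-204 and Cenpa-210 the gene's NMD share came to 45.3% and 55.2%.

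Tor1aip1 encodes lamina-associated polypeptide 1, an inner nuclear membrane protein that activates torsin ATPases. Tor1aip1-206 (chr1:156006234-156036480) took 24 of 28 and 23 of 26 gene reads, 85.7% (68.5% to 94.3%) and 88.5% (71.0% to 96.0%). No annotated protein-coding transcript of this gene had a read in either library. The remaining reads lay on models outside the annotation or on incomplete ones.

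Yaf2 encodes a Polycomb-associated partner of the transcription factor YY1, and Yaf2-202 held 29 of 84 and 27 of 77 reads (34.5% and 35.1%), the coding transcript Yaf2-201 44 and 40. Meaf6, a subunit of histone acetyltransferase complexes, had 16 reads on Meaf6-208 in each library, 41.0% and 43.2% of the gene. Suv39h2, a histone H3 lysine 9 methyltransferase, differed most between libraries among models with 10 reads in one of them, with 13 of 21 and 5 of 15 reads on Suv39h2-204. Those shares, 61.9% (40.9% to 79.2%) and 33.3% (15.2% to 58.3%), have overlapping intervals, and the gene was too shallow in replicate 2 for the share test. Ncaph2, of the condensin II complex, showed 19 and 20 reads on Ncaph2-209 (12.1% and 11.2%), and Abraxas1, the scaffold of the BRCA1-A complex, 9 of 20 and 10 of 25 reads on Abraxas1-209. The transcription factor gene Usf1 had 11 and 9 reads on Usf1-201 (18.0% and 15.3%). Zfp90-206, from a zinc finger gene, took 6 of 6 and 4 of 6 reads, too few to place its share.

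Next come genes of mitochondria and membranes. Gfer encodes the sulfhydryl oxidase of the mitochondrial intermembrane space, and Gfer-204 (chr17:24693190-24696112) took 28 of 42 and 15 of 21 reads, 66.7% (51.6% to 79.0%) and 71.4% (50.04% to 86.2%), where the coding transcript Gfer-201 had 3 and 2. Its level was 36.2 and 20.8 CPM, with an adjusted p of 0.444 in the exact binomial test with Benjamini-Hochberg adjustment. Tmem234, a membrane protein gene, had reads on 8 NMD models, the most of any gene. Tmem234-210 led with 51 and 50 reads (26.2% and 23.3%) beside 69 and 79 on Tmem234-201. The other 7 had between 1 and 13 reads summed, and the gene's NMD share was 33.3% and 28.4%.

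Smdt1, an essential regulator of the mitochondrial calcium uniporter, had 17 and 8 reads on Smdt1-204 (7.42% and 5.71%). Tmem208, an endoplasmic reticulum protein, had 14 and 5 on Tmem208-205 (14.4% and 9.26%), and Cyth2, an exchange factor for ARF GTPases, 13 and 21 on Cyth2-203 (18.3% and 25.9%). Slc35b1, a nucleotide transporter of the endoplasmic reticulum, had 9 and 14 on Slc35b1-202 (9.57% and 10.9%), and Nptn, an immunoglobulin-type adhesion protein, 14 and 10 on Nptn-207 (5.86% and 5.29%). None of these models was called in the share test.

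Other models among the most read came from genes of varied function. Pcnp-205, from a gene for a nuclear PEST-motif protein, had 31 and 17 reads (13.9% and 9.29%), and Cfl2-206, from the muscle cofilin gene, 13 and 15 (4.83% and 6.88%). Psma3-201, of a proteasome core subunit, had 12 and 11 (3.17% and 2.97%), Rbm7-204, of the nuclear exosome targeting complex, 11 and 8 (11.0% and 9.20%), and Dusp12-204, of a dual-specificity phosphatase, 11 and 7 (24.4% and 17.5%). A very abundant gene could yield a well-read NMD model at a tiny share: Lgals1, encoding the lectin galectin-1, had 20 and 28 reads on Lgals1-202 (0.251% and 0.480%) against 7378 and 5476 on Lgals1-201. The unadjusted p of that difference in share was 0.0278 and the adjusted p 0.409 (Fisher's exact test with Benjamini-Hochberg adjustment). Level in reads and share of the gene are thus separate quantities in these data.

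Splicing regulators, the gene class best known for poison exons, were described by lists chosen with earlier results of these data known. Of 29 hnRNP and other regulator genes with an annotated NMD transcript and reads, 11 had an NMD read. Over all 3513 such genes 528 (15.03%) did, with 27.0% at 100 to 399 gene reads and 31.0% at 400 or more. The NMD models of the list took 94 of 6129 list reads (1.53%) and 90 of 5861 (1.54%). List reads, here and below, are those of all genes of a list, also of genes without an annotated NMD transcript. All annotated genes, most of them without an annotated NMD transcript, gave 0.204% and 0.203%. The 1474 genes with an annotated NMD transcript and at least 20 reads in each library gave 0.722% and 0.713%. Neither set matches the list, in which 29 of 46 genes have an annotated NMD transcript. The median NMD share over the 10 genes with 20 reads in each library was 2.92%, against 1.99% over all 359. Of the SR protein genes, which encode serine- and arginine-rich splicing activators, 5 of 13 had an NMD read, with 22 and 16 reads (1.21% and 0.923%) and a median share of 1.99%. None of the 7 and 3 models of these lists that entered the share test was called.

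Hnrnpa1, an hnRNP that often represses exons, had 35 and 31 reads on Hnrnpa1-203 out of 744 and 760 (4.70% and 4.08%). Hnrnpdl, a close relative of hnRNP D, had 25 of 156 and 24 of 146 on Hnrnpdl-201 (16.03% and 16.44%, or 16.2% ± 0.292, SD, n = 2). Both keep the complete coding sequence of the coding transcript, and their additional splice junctions lie after the normal stop codon. Clk1, a kinase that phosphorylates SR proteins, had 10 of 34 and 14 of 43 reads on the exon-skipping Clk1-210 (29.4% and 32.6%), beside 15 and 17 on the coding Clk1-201. With Clk1-211 the gene's share was 32.4% and 37.2%. Tardbp, encoding TDP-43, had 3 and 5 reads on 3 NMD models out of 22 and 35 (13.6% and 14.3%). Rbm39, a U2AF-like splicing factor, had 7 of 256 and 7 of 200 on Rbm39-225.

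Among SR genes the values were low. Srsf3-201 had 9 of 408 and 7 of 397 reads (2.21% and 1.76%), and Srsf6-201 3 and 5 (1.69% and 2.69%). Tra2b-206 had 4 and 3 (3.01% and 2.01%), Srsf2 models 3 and 1 (0.909% and 0.323%), and Srsf7-203 3 and 0. In each SR gene with an NMD read the coding transcripts held far more reads, as in Srsf3-202 with 364 and 370.

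Core spliceosome genes and the NMD machinery added little. Of 18 spliceosome genes with an annotated NMD transcript and reads, 5 had an NMD read, with 24 and 12 reads (0.724% and 0.410% of list reads). Among all such genes 15.03% had one, and 27.0% of those with 100 to 399 reads. The members were Snrpe (9 and 3) and Snrpb (3 and 2), which encode Sm proteins, the U1-associated Luc7l (3 and 6), U2af1 (7 and 1), which recognises the 3′ splice site, and the U2 protein gene Snrpa1 (2 and 0). Of the 4 NMD and exon junction factor genes with an annotated NMD transcript and reads, Magohb, an exon junction core protein, had 4 of 38 and 2 of 17 reads on its NMD model. No gene of either list was called in the share test, which took 4 spliceosome models and 0 of the NMD factors.

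Ribosomal and respiratory genes had low shares with a few exceptions. Of 19 ribosomal protein genes with an annotated NMD transcript and reads, 9 had an NMD read. Among all such genes 15.03% did, and 31.0% of those with 400 or more reads. The NMD models took 87 of 66999 list reads in replicate 1 and 53 of 52933 in replicate 2 (0.130% and 0.100%). These list reads come from all 81 ribosomal genes with reads, most of them without an annotated NMD transcript. The median share of the 9 genes was 0.657%. Most came from Rpl10a, a large-subunit protein: Rpl10a-203 had 44 of 941 reads (4.68%) and 30 of 830 (3.61%), beside 753 and 724 on Rpl10a-201. Rpl13a had 15 and 9 reads over 4 models (1.33% and 1.13%), Rps19 7 and 3, and Rpl12 4 and 1. Ribosomal genes can have near-identical copies, and how reads were divided between copies was not tested.

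Of 21 oxidative phosphorylation genes with an annotated NMD transcript and reads, 6 had an NMD read (0.155% and 0.125% of list reads). Among all such genes 15.03% had one, and 27.0% of those with 100 to 399 reads. Ndufa7, a complex I subunit, led with 23 of 254 and 18 of 207 on the exon-skipping Ndufa7-202 (9.06% and 8.70%, or 8.88% ± 0.254, SD, n = 2). Ndufs6 had 7 and 4, Ndufb8 3 and 2, Ndufs4 3 and 1, and Atp5j2 and Ndufa3 1 and 0. Ndufa7 thus held most of the NMD reads of this list.

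Of 12 translation factor genes with an annotated NMD transcript and reads, 3 had an NMD read. Among all such genes 15.03% had one, and 27.0% of those with 100 to 399 reads, so these small lists do not stand apart. The 3 were Eif4a2, a helicase of the cap-binding complex, with 3 and 4, Eif2a with 2 and 0 and Eif4a1 with 1 and 0. Of 4 such polyamine genes 1 had NMD reads: Sat1, which encodes spermidine/spermine acetyltransferase, with 3 of 454 and 3 of 353. Of 7 muscle genes with an annotated NMD transcript and reads 1 had any, near the 15.03% of all such genes. It was Tnnc1, the slow and cardiac troponin C, with 3 of 395 and 3 of 211. The muscle list's NMD share was 0.0296% and 0.0319%. That share is taken over the reads of all 39 genes of the list, most of them without an annotated NMD transcript. The integrated stress response list has no annotated NMD transcript in these genes. The share test took 1 model each of the translation factor, polyamine and muscle lists and called 0 of them, and no model of the stress response list could be tested.

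NMD models were compared with a coding transcript of the same gene, and shifted splice sites were the most common difference. Each of the 594 members whose gene has an annotated protein-coding transcript was set against the one with the most reads. For 27 of them no coding transcript had a read, and the one with the lowest identifier was taken. A shifted splice site was present in 262 members, a skipped exon in 201, an added internal exon in 122, a kept intron in 25, an added intron in 18, another last exon in 17 and another first exon in 15; 67 had more than 1 of these and 3 had none. By reads, models with an added exon (796 reads) passed those with a skipped exon (706), behind shifted splice sites (1369). Kept introns, with 78 reads, were rare here.

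**Figure D4:**
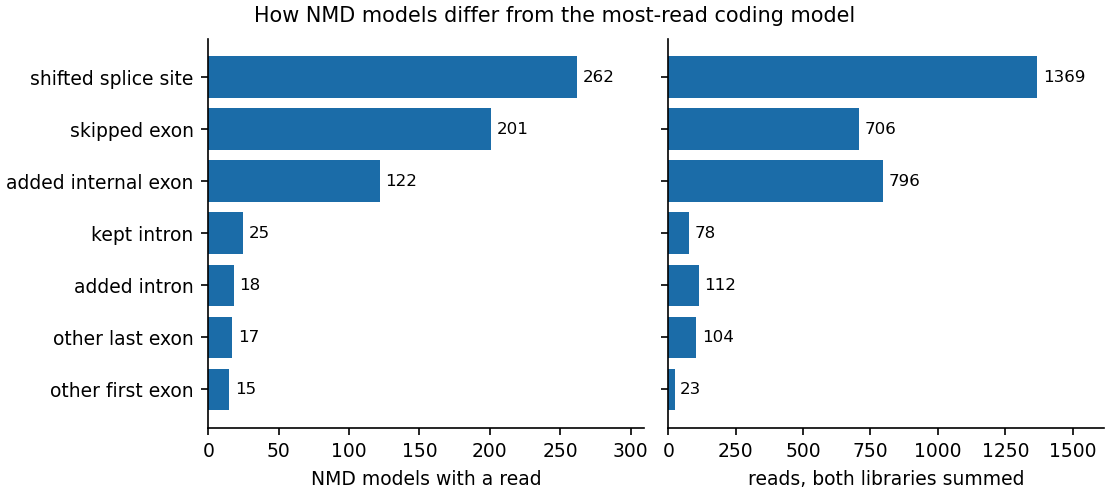
Number of NMD models (left) and their reads summed over both libraries (right) by the splicing difference from the most-read protein-coding transcript of the gene; a model with several differences is counted in each. Shifted splice sites lead both panels at 262 models and 1369 reads, and added exons pass skipped exons by reads alone.

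Most skipped and added exons had a length that is not a multiple of 3. Exons were counted wherever they lie, also after the stop codon, as in Hnrnpdl-201, where length shifts no reading frame. An early stop is part of the annotation's definition of these models, and no other exons were counted for comparison. The percents therefore describe the members and do not test a preference for frame-shifting exons. Of 233 skipped exons, 212 (91.0%) had a length that is not a multiple of 3, with a median of 113 bases. Of 129 added exons 90 (69.8%) did, their median length being 105 bases (range 34 to 460), and in 96 of 122 models with an added exon the stop codon lay inside it. The start codon was that of the coding transcript in 515 members, and 499 of these departed from it before the stop. The stop then came a median of 42 bases after the departure (quartiles 17 and 78), and within 60 bases in 335. The stop codon was TGA in 339 members, TAA in 130 and TAG in 127.

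The resulting reading frames were short. In the 532 members with an annotated start and a coding partner the median coding length was 258 bases, against 960 in the partners. A stop at least 50 bases before the last junction was present in 594 of 596 members, which restates the annotation's own definition, and in 43 of 13707 protein-coding models with reads (0.314%). The median distance was 312.5 bases (quartiles 147 and 641). Whole spliced length was also smaller, with a median of 1506.5 bases over 7 exons against 2324 bases and 7 exons in protein-coding models with reads.

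**Figure D5:**
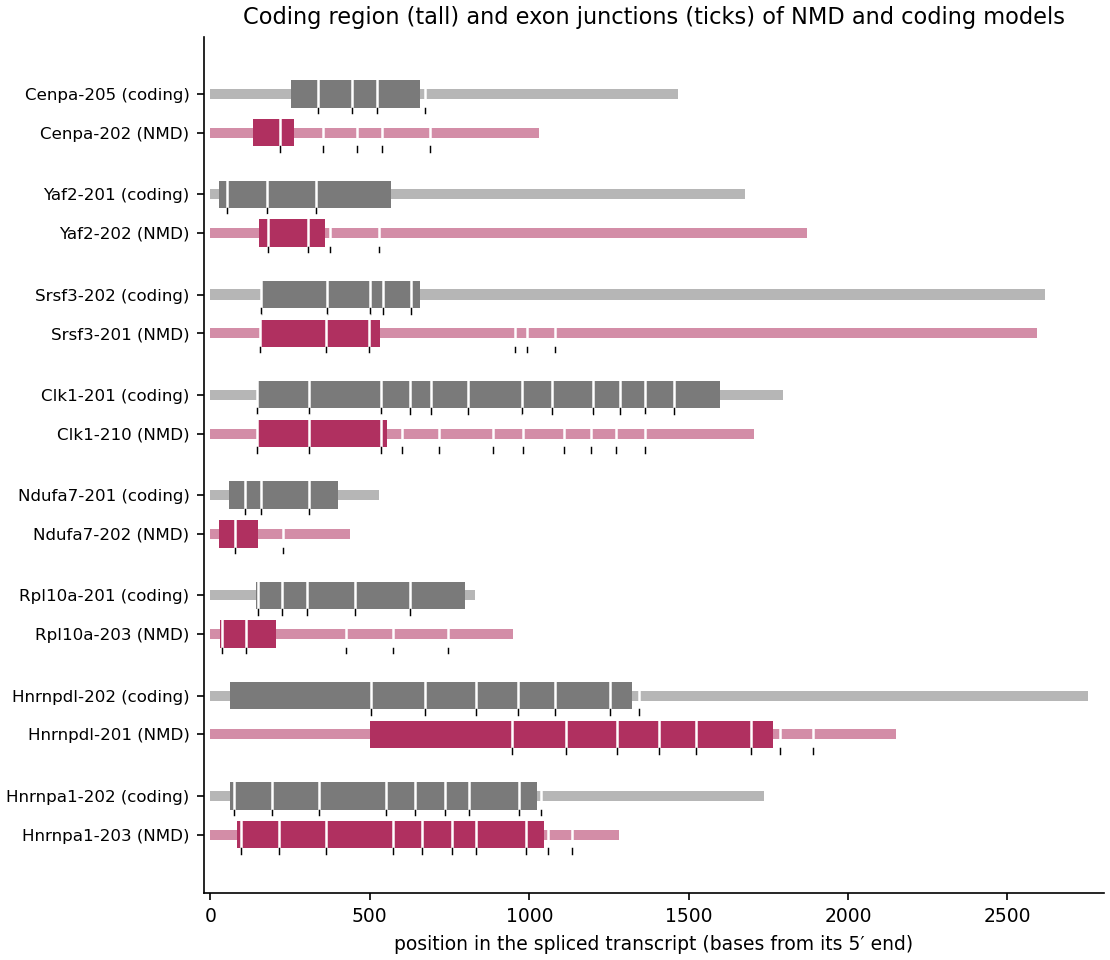
Spliced NMD models (red) below the most-read coding model of the same gene (grey), in bases from the 5′ end; tall boxes are coding regions and ticks are exon junctions. In Cenpa-202, Yaf2-202, Srsf3-201, Clk1-210, Ndufa7-202 and Rpl10a-203 the coding region ends early, while in Hnrnpdl-201 and Hnrnpa1-203 it is complete and is followed by an additional junction.

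Examples of each class differed in what they leave intact. Cenpa-202 reads 126 coding bases against 402 in its partner, and Clk1-210 reads 405 against 1449. Ndufa7-202 reads 120 against 339, Wls-206, with an added exon, 111 against 1623, and Ncaph2-209, with a shifted site, 114 against 1821. At the other end, 19 members with 219 reads kept the stop codon of the coding transcript, and 16 of them match it from the start codon through the stop. Among these 16, Hnrnpdl-201 differs after the stop by an added exon, Hnrnpa1-203 and Hnrnpa2b1-209 (5 and 1 reads) by another last exon, and Gfer-204, Abraxas1-209 and Chpt1-207 (6 and 4 reads) by an added intron. Kept introns were led by Tmem208-204 (9 and 2 reads), Ddx5-208 of an RNA helicase gene (3 and 6) and Acbd4-202 (4 and 4). The class of another last exon also held Taf1d-204 (3 and 2), and that of another first exon alone held Kmt5a-213 (1 and 2) and Iscu-205 (2 and 0).

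Some members cannot be told from other transcripts by their introns alone. The introns of 16 members (67 reads) are an unbroken run of those of a coding transcript, among them Snrpe-206, and 8 members (34 reads) have exactly the introns of another annotated transcript. The annotation marks 62 members (182 reads) as lacking their start. The annotation's own support level was the best, 1, for 297 members, 2 for 64, 3 for 60 and 5 for 102, and 73 members carry no level.

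The splicing that defines the NMD models was also read outside them. Introns found in an NMD member but in no annotated protein-coding transcript existed in 480 genes. Reads on models with such introns numbered 2319 in replicate 1 and 2136 in replicate 2, which is 1.61 and 1.60 times the reads on the members that carry them. Members gave 1442 and 1338 of them, complete models outside the annotation 592 and 607, incomplete models 230 and 145, and other annotated models 55 and 46. They made up 0.300% and 0.296% of annotated-gene reads, with no difference by Fisher's exact test (two-sided, p = 0.642).

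In some genes, splicing regulators among them, this count was well above that of the member. In 252 of the 480 genes, models other than members also held such reads. Among genes of other function, Ptov1 had 81 of 131 and 39 of 64 reads with an NMD intron, against 2 and 3 on its member. Kansl2 had 51 of 283 and 54 of 311, against 3 and 1. Both were named after their values were seen. The splicing regulators were taken from those named above. Rbm39 had 35 of 256 and 29 of 200 reads with an NMD intron (13.7% and 14.5%) against 7 and 7 on Rbm39-225, and Tra2b 12 of 133 and 12 of 149 (9.02% and 8.05%) against 4 and 3. In Hnrnpdl the figure was 46 and 46 reads (29.5% and 31.5%), in Tardbp 8 and 17 (36.4% and 48.6%) and in Cenpa 77 and 98 (55.4% and 63.6%). In Srsf3 it stayed near the member's own count, at 10 and 8, and in Yaf2 at 31 and 27. Annotated models other than the member held 16 and 9 of these reads in Rbm39, 7 and 8 in Tra2b and 2 and 0 in Hnrnpdl, and 0 in Tardbp and Cenpa. A read over such an intron was not tested for a premature stop, and models outside the annotation carry no reading frame here.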

How the data were processed

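Total RNA of C2C12 cells was read by long-read sequencing in 2 libraries of 1 group. The authors deposited a raw count of reads per transcript model for each library, with no normalisation, and an annotation with the coordinates of each model on mm10. Per the file headers, the annotation behind the models is GENCODE M21; the source field of models outside it names TALON. The alignment tool was not given in the sources used here, nor were read filters. Counting is by read and was not divided by length.

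Models of the class Known were joined to GENCODE M21 by transcript identifier; 0 transcript types and 0 exon structures of members differed between the deposited annotation and GENCODE. A gene's reads are the sum over all its models, and complete models are the classes Known, NIC and NNC. Coding regions and sequences came from GENCODE M21 on mm10. An intron chain was compared with that of the protein-coding transcript of the gene with the most reads. The class of an added intron was introduced after the data were seen, beside 6 classes planned: added internal exon, skipped exon, kept intron, shifted splice site, other first exon and other last exon.

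Members, gene lists and tests were chosen with earlier results of these data known. The lists held SR proteins, hnRNPs and other splicing regulators, the spliceosome core, NMD and exon junction factors, ribosomal proteins, translation factors, oxidative phosphorylation, polyamine genes, the integrated stress response and muscle genes. Shares have Wilson 95% intervals. For level, an exact binomial test (two-sided) was run over annotated transcripts with at least 10 reads, given the totals of annotated-gene reads. Share was tested by Fisher's exact test over those with at least 5 reads in genes with at least 20 reads in each library. Both used Benjamini-Hochberg adjustment at 0.05 over all annotated transcripts tested. Both were tested on simulated data that held counting error only, which cannot show how they behave under a spread between libraries. Models named are the 25 with the most reads, those with at least 50% of their gene's reads and 10 reads, up to 5 genes per list, up to 5 with the largest difference in share, and up to 3 per splicing class; others are said to be named after their values were seen. 1 gene that the rule names is not reported here. Alternatives covered read minimums, denominators, TMM and DESeq2 scaling, the edgeR exact test and another coding partner. Python 3.11.15, scipy 1.17.1, pandas 2.3.3, R 4.3.3, edgeR 4.0.16 and DESeq2 1.42.0 were used.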

Additional observations from a re-analysis of the deposited data

How the results depend on the processing

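The number of NMD models depends on the read minimum: 596 with 1 read in either library became 362 with 2 reads summed, 173 with 5, and 287 with a read in each library, and leaving out 1 library gave 433 to 450. The 27 genes with an NMD share of at least 10% in both libraries became 52 with a gene minimum of 10 reads in each library and 10 with a minimum of 50, and 40 to 45 from a single library. Over complete models alone, or annotated models alone, 27 genes passed in each case. Of models with at least 10 reads in replicate 1, 100% were seen in replicate 2, against 96.3% from 5 reads. With the coding transcript of fewest differing introns as the partner, models with another first exon numbered 33 instead of 15 and with another last exon 26 instead of 17; the other 5 classes stayed within 1.5 times their count. No NMD model was called in level or in share under any alternative run, with 1 to 5 and 2 to 7 models at an unadjusted p under 0.05. Over all annotated transcripts, 346 were called in level, and 9 by the edgeR exact test; 114 were called in share, and 16 over complete models alone. The NMD percent of reads stayed without a difference over annotated models (0.263% and 0.251%, Fisher's exact test p = 0.210), complete models (0.242% and 0.230%, p = 0.141) and protein-coding genes (0.217% and 0.215%, p = 0.827). No paired analysis was possible because the series has 1 group only, and its replicate numbers pair no samples.

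Depth limits these results: models with 1 read in a library reappeared in the other in 41.9% and 43.7% of cases, and 0 reads leave room for up to 3 counts.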
